A study of Macaca fascicularis and Macaca mulatta with 24 samples.

Results

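The genes described here are 10 inducible early-response genes of macaque cortex: the dual-specificity phosphatases DUSP1, DUSP2, DUSP4, DUSP5 and DUSP6, the immediate early response genes IER2, IER3 and IER5, and the stress sensors GADD45B and GADD45G. They were found by exact match of the symbol in the array files, and all 10 are on the array, read by 11 probes. Of these, 9 genes passed the filter on dim probes, among 15849 genes that passed in all. All animals were cynomolgus macaques with an experimental stroke, made by closing the middle cerebral artery of the right side (MCAO). Animals were given placebo, or 2.6 mg/kg TatNR2B9c, through a vein 5 min later. This peptide couples the last residues of NR2B, an NMDA receptor subunit, to a Tat sequence that carries it into cells, where it competes for binding to the scaffold protein PSD-95. Cortex was taken 1 h or 6 h after MCAO, on the right (ischemic) and on the left (non-ischemic). This gives 8 groups of 3 arrays: placebo left 1 h, placebo right 1 h, placebo left 6 h and placebo right 6 h, and the same 4 under TatNR2B9c. No group comes from animals without MCAO, so the left side of an operated animal is the only control tissue. Each array set the sample RNA (Cy5) against a common rhesus reference RNA (Cy3), and every level below is the log2 ratio of sample over reference. Right and left arrays with 1 number in their titles were read as 1 animal, which makes 12 animals. The array values do not bear out this pairing, as given at the end.

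Signals at glutamate and growth factor receptors switch on the MAP kinases ERK, JNK and p38 in neurons and glia, and the kinases switch on immediate early genes within minutes. DUSP1, DUSP2, DUSP4 and DUSP5 are nuclear phosphatases that take the activating phosphates off MAP kinases, and DUSP6 does so for ERK in the cytoplasm, so each closes a negative feedback loop. GADD45B and GADD45G are small proteins that bind the kinase MEKK4 upstream of p38 and JNK, and GADD45B is an activity-induced gene of neurons linked to DNA demethylation. IER2, IER3 and IER5 are short-lived early-response products of growth factor and stress signals, and IER3 also acts on ERK signalling and cell survival. In brain tissue genes of these families are known to respond to seizures and to ischemia.

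The probes decide what can be read, so the first 30 bases of each are shown for the 9 genes that passed, all letters alike since no position is singled out.
DUSP1: agaatctcttcatgcttgacatacctacca
DUSP2: tgtcgtgctgtgtgtgtcagtctgtgagcc
DUSP5: ttatttctccaggggaaaaggcaataattt
DUSP6: catttgattgtgaagaagggagagttaaat
GADD45B: agagcgagatgggaagcacagatatctata
GADD45G: cggatccgggcaatgcttcgttttctaaag
IER2: accccctccatcccggggggagcgcccgcg
IER3: cgactgtcgagattgcccagtatgttctgt
IER5: gtaagtttgtcttgtggcattaagactatt

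Each probe is 60 bases long, is spotted 2 times on the array and shares no run of 20 bases with a probe of another gene. The probes were compared with other probes only, not with transcripts. Whether a probe also binds the transcript of a related gene was not tested. The 2 IER3 probes have the same sequence and are technical copies. On rheMac2 (rhesus), the array files place the DUSP1 probe at chr6:169160514-169160573 and the IER5 probe at chr1:189630432-189630491, both on the minus strand. The DUSP6 probe is at chr11:90497507-90497566, minus strand, and the DUSP5 probe at chr9:110212571-110212630, plus strand. GADD45B is read at chr19:2278568-2278627, GADD45G at chr15:98104110-98104169 and IER2 at chr19:12828723-12828779, all on the plus strand. The files place the DUSP2 and IER3 probes nowhere, and the exon or UTR that a probe reads was not analysed here. DUSP1, DUSP4, DUSP5, GADD45B and IER3 carry their symbol in the newest annotation. DUSP2, DUSP6, GADD45G, IER2 and IER5 carry it only in the oldest one, which names human transcripts, and the newer files call the DUSP2 and IER2 probes unknown. The IER2 probe is 76.7% G and C, above the 95th percentile of 60% for all probes.

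The arrays fall into 3 sets by the Feature Extraction version in the file headers (placebo 1 h, placebo 6 h, TatNR2B9c), called scanning campaigns here. No scan day is shared between these sets. Campaign and treatment therefore cannot be told apart, nor can campaign and time in the placebo animals. Right against left, and 6 h against 1 h under TatNR2B9c, lie within 1 campaign, but not always within 1 scan day. At placebo 6 h the 3 right arrays and left array 2 were scanned on 1 day and left arrays 1 and 3 on another. Under TatNR2B9c all 1 h arrays and both 6 h arrays of animal 3 share a day, and the other 4 arrays at 6 h have a day of their own. The days hold too few arrays per group for values within a day, and with scan day as a block 0 members were called in these comparisons. The reference channel was weak at placebo 1 h, with 15.7% to 51.7% of probes well above background against 51.8% or more on all other arrays. Placebo left 1 h arrays 1 and 3 and placebo right 1 h array 3 were the lowest, at 18%, 15.7% and 22.2%. On 2 of these, placebo left 1 h array 1 and placebo right 1 h array 3, the log2 ratios of all genes spread with an SD of only 0.36 and 0.65, against 0.81 to 1.67 on the other arrays, and members lie closer to 0 there. All 7 measured neuron markers were well above background in Cy5 on all 24 arrays.

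No gene, member or other, passed the test between ischemic and non-ischemic cortex in any of the 4 groups of animals, so the counts say nothing particular to the members. At 1 h under TatNR2B9c the 3 animals shared a sign for DUSP1, GADD45B and IER5 (higher on the right) and for IER2 (lower). The 3 animals also shared a sign, higher on the right, for IER2 at placebo 1 h (0.01 to 0.10) and for IER5 at placebo 6 h (0.07 to 0.29). The share of all genes with such a shared sign was not counted. By limma with Benjamini-Hochberg adjustment over all genes, 0 of 9 members passed in each of the 4 right-minus-left comparisons, and also 0 of all genes (0%). At an unadjusted p under 0.05 the count was again 0 of 9 members in each. Of all genes it was 211 (1.33%) at placebo 1 h, 610 (3.85%) at placebo 6 h, 711 (4.49%) at TatNR2B9c 1 h and 517 (3.26%) at TatNR2B9c 6 h. With such small shares a count of 0 among 9 members says nothing particular to them. In the mean over the 4 groups of animals, no member was farther from 0 than GADD45G at -0.39 (SE 0.45, adjusted p = 0.892). Of all genes 0% were called there (602, or 3.8%, at an unadjusted p under 0.05). The spread between animals was large: the SD of the right-minus-left difference over 12 animals was 1.67 for DUSP1, 1.69 for DUSP6 and 1.62 for GADD45G, against 0.32 for IER5. No member was higher on the right in more than 9 of 12 animals, the count of IER5, and the others ranged from 5 to 7.

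**Figure D1:**
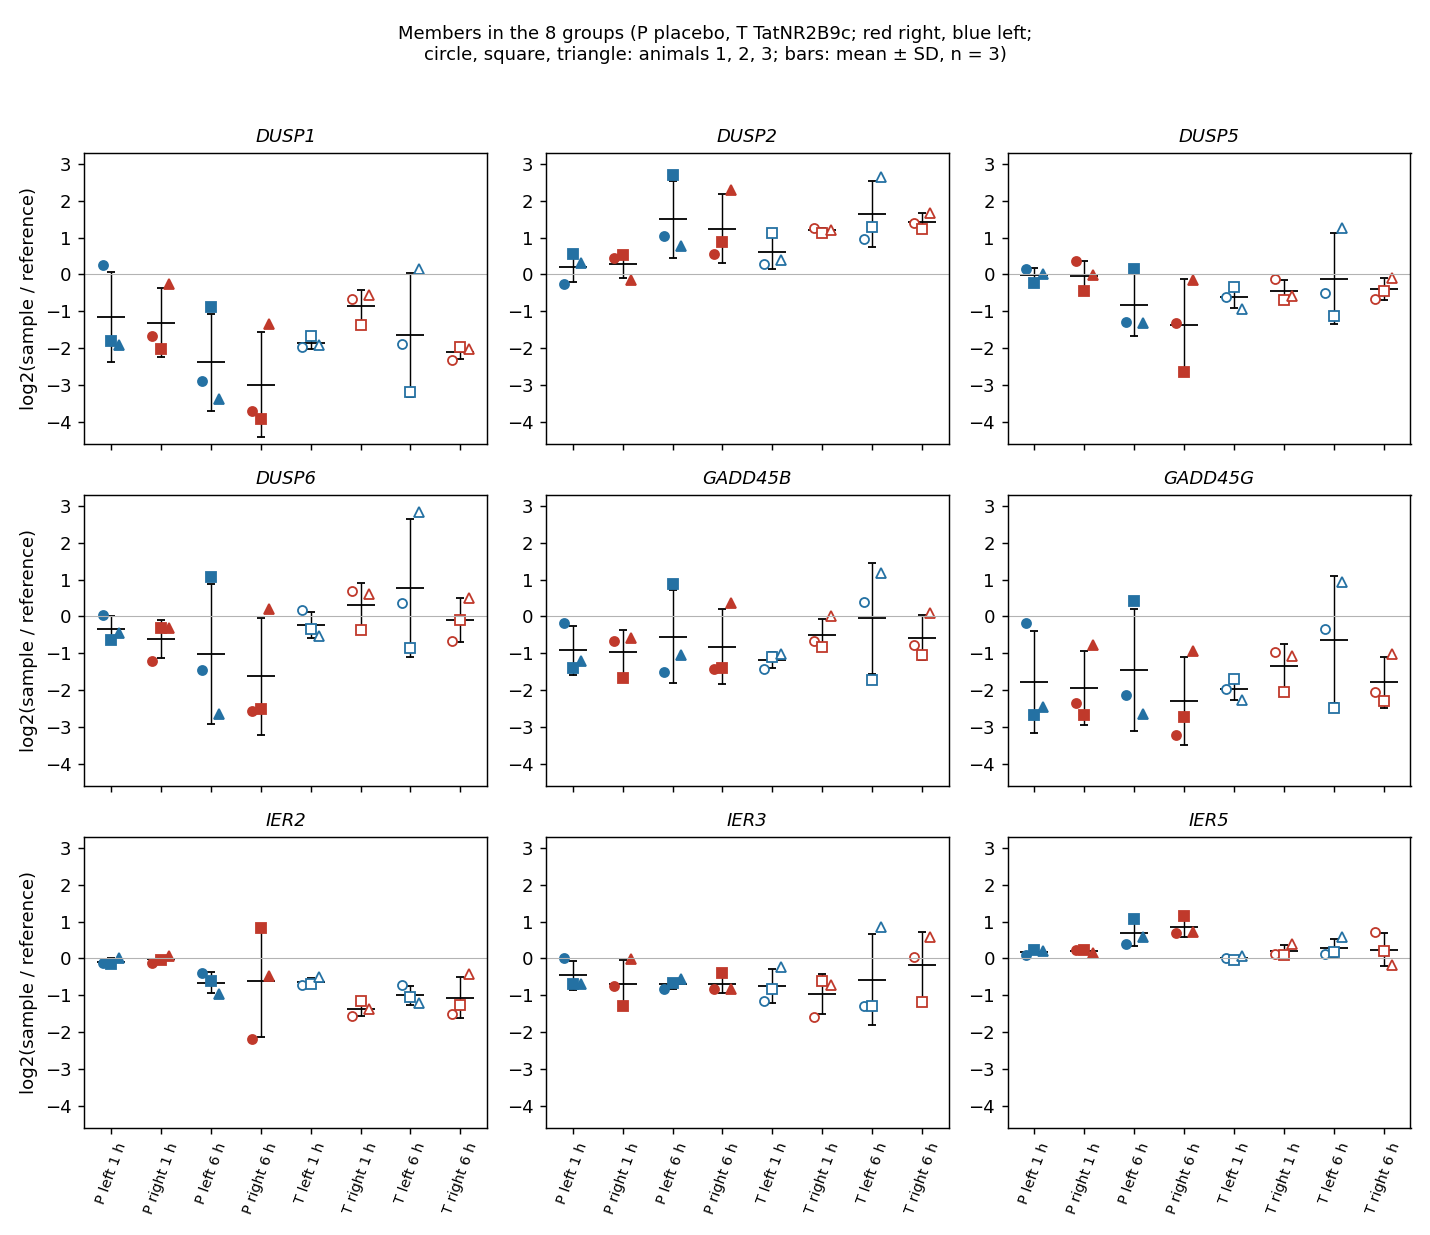
Log2 ratio of sample over reference (y axis) of the 9 members in the 8 groups (x axis), 1 point per array, with mean ± SD of 3 arrays as bars. Red and blue (right and left) overlap in every placebo panel, and single arrays stand high at 6 h in the DUSP and GADD45 panels, such as TatNR2B9c left 6 h animal 3 at 2.83 for DUSP6.

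DUSP1, the best known of the stress-induced MAP kinase phosphatases, was below the reference on 22 of 24 arrays. In placebo cortex at 1 h the 3 left arrays read 0.25, -1.81 and -1.93, and the 3 right arrays -1.66, -2.02 and -0.25. The values near 0 are the 2 arrays of narrow spread, and the sides overlap. At 6 h the left arrays read -2.89, -0.89 and -3.39 and the right arrays -3.70, -3.93 and -1.35. Here 1 array on each side stands above the other 2. Under TatNR2B9c at 1 h the left arrays read -1.98, -1.68 and -1.92, and the right arrays -0.66, -1.37 and -0.57. Every right array was above every left array, and the animals differed by 1.32, 0.31 and 1.36. The sample signal (Cy5) was 264 and 199 on left arrays 1 and 2, against 1770 on left array 3 and 1240 to 1510 on the right arrays. The difference of 0.99 (SE 0.82, adjusted p = 0.927 by limma) did not pass. At 6 h under TatNR2B9c the left arrays read -1.89, -3.19 and 0.14 and the right arrays -2.32, -1.96 and -2.03. The left arrays then lie on both sides of the right ones.

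DUSP2, a nuclear phosphatase first known from lymphocytes, was above the reference on all but 2 of 24 arrays. Its group means ran from 0.20 in placebo left 1 h to 1.63 in TatNR2B9c left 6 h. In placebo left cortex it read -0.26, 0.56 and 0.30 at 1 h and 1.04, 2.69 and 0.76 at 6 h. In placebo right cortex it read 0.44, 0.52 and -0.14 at 1 h and 0.54, 0.89 and 2.30 at 6 h. All 6 h values lie above those of 1 h on either side. Under TatNR2B9c the left arrays read 0.28, 1.13 and 0.39 at 1 h and 0.95, 1.29 and 2.65 at 6 h, and the right arrays 1.26, 1.13 and 1.20 at 1 h and 1.39, 1.22 and 1.67 at 6 h.

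DUSP5, a nuclear phosphatase specific for ERK, had group means between -0.03 (placebo left 1 h) and -1.37 (placebo right 6 h). Its right-minus-left values in placebo animals were 0.20, -0.22 and -0.03 at 1 h and -0.03, -2.78 and 1.19 at 6 h. Under TatNR2B9c they were 0.49, -0.35 and 0.35 at 1 h and -0.18, 0.67 and -1.36 at 6 h. Animals of 1 group thus differed in sign in all 4 groups.

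DUSP6, the cytoplasmic ERK phosphatase and a common readout of ERK activity, had the widest range of any member at 6 h. The placebo left arrays read -1.46, 1.06 and -2.65 and the right arrays -2.57, -2.52 and 0.20. Under TatNR2B9c at 6 h the left arrays read 0.36, -0.85 and 2.83 and the right arrays -0.68, -0.11 and 0.50. Right minus left in the 6 h animals was -1.11, -3.59 and 2.84 under placebo and -1.04, 0.74 and -2.33 under TatNR2B9c. The means of these values were -0.62 ± 3.24 (SD, n = 3) and -0.88 ± 1.54, so neither exceeded the spread between animals. At 1 h the animals differed by -1.25, 0.31 and 0.14 under placebo and by 0.53, -0.02 and 1.15 under TatNR2B9c.

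DUSP4, another nuclear phosphatase, was not well above background in Cy5 on 23 of 24 arrays. The exception was TatNR2B9c left 6 h animal 1, the array with the largest share of probes above background, 97.7%. Its ratios lay between -0.13 and 0.22 and show no level, so DUSP4 enters no comparison below.

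GADD45B read -0.17, -1.39 and -1.21 in placebo left cortex at 1 h and -0.68, -1.66 and -0.58 in placebo right. At 6 h the left arrays read -1.50, 0.88 and -1.05 and the right arrays -1.42, -1.39 and 0.35. Both sides again hold 1 high array of 3. Under TatNR2B9c at 1 h it read -1.42, -1.10 and -1.03 on the left and -0.68, -0.84 and 0.00 on the right, with no overlap and differences of 0.75, 0.26 and 1.02. The mean difference of 0.68 (SE 0.68, adjusted p = 0.931 by limma) did not pass. At 6 h the left arrays read 0.38, -1.73 and 1.19 and the right arrays -0.78, -1.06 and 0.10, which overlap.

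GADD45G, its paralog, was below the reference on 22 of 24 arrays, the exceptions being placebo left 6 h animal 2 at 0.42 and TatNR2B9c left 6 h animal 3 at 0.94. Right minus left was -2.16, -0.01 and 1.66 in placebo animals at 1 h and -1.08, -3.15 and 1.71 at 6 h. Under TatNR2B9c it was 1.02, -0.37 and 1.20 at 1 h and -1.71, 0.18 and -1.95 at 6 h. The 6 h mean of -1.16 ± 1.17 (SD, n = 3) was of the size of its spread (adjusted p = 0.937 by limma). Without any 1 array of these groups, or under any other processing tried, it lay between -2.09 and -0.37 and was never called.

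IER2 is an early nuclear protein induced by growth factors. At placebo 1 h all 6 arrays read between -0.14 and 0.07, but its reference signal was well above background on only 1 of those 6 arrays. At placebo 6 h the left arrays read -0.41, -0.61 and -0.97 and the right arrays -2.20, 0.83 and -0.48. Under TatNR2B9c at 1 h the left arrays read -0.72, -0.70 and -0.51 and the right arrays -1.57, -1.17 and -1.37. The right arrays were all below the left ones, with animal differences of -0.85, -0.47 and -0.86, a mean of -0.73 (SE 0.46, adjusted p = 0.927 by limma). With arrays scaled to equal spread the value was 0.07, and from the sample channel alone (Cy5, quantile normalised) it was -0.17. At 6 h the TatNR2B9c animals differed by -0.78, -0.20 and 0.79.

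IER3, induced by stress and inflammatory signals, had group means from -0.98 (TatNR2B9c right 1 h) to -0.19 (TatNR2B9c right 6 h). Its right-minus-left values ran from -0.74 to 1.32 over the 12 animals, and 5 of 12 were above 0. By animal the values were -0.74, -0.59 and 0.66 under placebo at 1 h and -0.01, 0.26 and -0.25 at 6 h, and -0.45, 0.23 and -0.49 under TatNR2B9c at 1 h and 1.32, 0.10 and -0.25 at 6 h. No group held 3 animals of 1 sign.

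IER5, a heat-shock-factor target, had the smallest spread. It read 0.10, 0.23 and 0.21 in placebo left and 0.23, 0.22 and 0.15 in placebo right cortex at 1 h. At 6 h it read 0.39, 1.08 and 0.59 on the left and 0.68, 1.15 and 0.72 on the right. Every 6 h array lies above every 1 h array. Its reference signal was well above background on 0 of 6 placebo 1 h arrays and on 6 of 6 placebo 6 h arrays. Under TatNR2B9c it read 0.00, -0.05 and 0.07 on the left against 0.11, 0.09 and 0.38 on the right at 1 h. Its reference was well above background on 4 of these 6 arrays, and on neither array of animal 3. Its TatNR2B9c arrays at 6 h read 0.13, 0.17 and 0.57 (left) against 0.72, 0.19 and -0.19 (right), which overlap.

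Ordered by group mean, few neighbouring groups of a gene stood apart. Of 7 steps between neighbours in that order, the gap exceeded the larger SD of the pair in 2 for IER5, in 1 each for DUSP1, DUSP2 and IER2, and in 0 for DUSP5, DUSP6, GADD45B, GADD45G and IER3.

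Groups of 3 arrays that do not overlap were counted beside the same count over all genes. In the right-minus-left comparison under TatNR2B9c at 1 h, 4 of 9 members had groups apart, DUSP1, GADD45B and IER5 higher and IER2 lower on the right, against 20% of all genes. The IER5 reference was well above background on 4 of the 6 arrays compared. The sample signal (Cy5) of these 4 members was lowest on left arrays 1 and 2. It was 264 and 199 for DUSP1, 576 and 478 for GADD45B, 134 and 113 for IER5 and 139 and 113 for IER2. The part of this weak signal in the separations was not tested. In the other right-minus-left comparisons 0 of 9 members had groups apart, against 3.67% of genes at placebo 1 h, 12.7% at placebo 6 h and 2.34% at TatNR2B9c 6 h. No test was made on these counts.

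**Figure D2:**
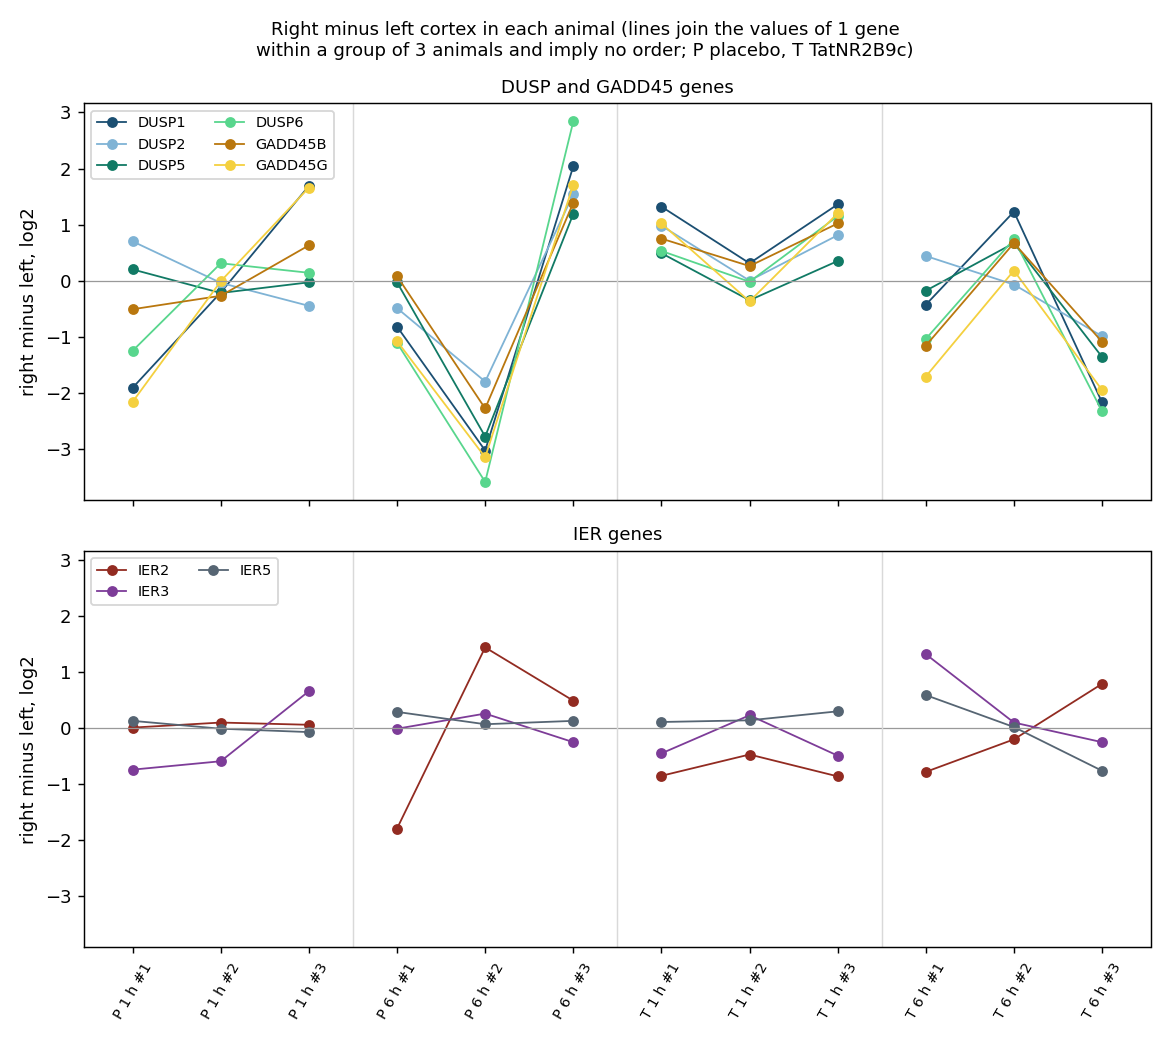
Right minus left (log2, y axis) for each of the 12 animals (x axis), with the 6 DUSP and GADD45 genes above and the 3 IER genes below; points of 1 gene in a group of 3 animals are joined for the eye only. In placebo animal 2 at 6 h the upper 6 genes lie between -3.59 and -1.80, and in placebo animal 3 at 6 h between 1.19 and 2.84.

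DUSP1, DUSP2, DUSP5, DUSP6, GADD45B and GADD45G varied together from animal to animal, a set of 6 singled out after its values were seen. In placebo animal 2 at 6 h all 6 were lower on the right (-3.59 to -1.80), and in placebo animal 3 at 6 h all 6 were higher (1.19 to 2.84). In TatNR2B9c animal 3 at 6 h all 6 were lower (-2.33 to -0.99). In TatNR2B9c animals 1 and 3 at 1 h all 6 were higher, from 0.49 to 1.32 and from 0.35 to 1.36. For the 3 animals at 6 h, 1 array of each pair was high. Placebo left 6 h animal 2, placebo right 6 h animal 3 and TatNR2B9c left 6 h animal 3 held the highest value of their group for each of the 6. The array high for these genes lay on the left in 2 of the 3 animals and on the right in the other. The partner array also counted: placebo left 6 h animal 3 was the lowest of its group for 6 of 9 members, and for DUSP5 placebo right 6 h animal 2 was the lowest of its group at -2.64. TatNR2B9c animal 3 at 6 h was on a slide, and scanned on a day, shared with 1 h arrays, unlike the other 6 h animals of that treatment. Placebo left 6 h animal 2 was also scanned on another day than the other left arrays of its group. Placebo right 6 h animal 3 shared its day with the other right arrays of its group. The part of scan day in this pattern was not tested. As a description over 12 animals, which share arrays between genes, Pearson's r of right minus left ran from 0.61 to 0.96 over the 15 pairs among the 6, and Spearman's rho from 0.53 to 0.98. DUSP1 and GADD45G stood highest (r = 0.96, rho = 0.98), and r was 0.94 without the 2 animals farthest from the median of DUSP1. Some relations of DUSP2 moved more, but this depended on the gene by which the 2 farthest animals were taken. For DUSP1 with DUSP2, r went from 0.66 to 0.26 by DUSP1 and to 0.32 by DUSP2. For DUSP2 with GADD45B, r went from 0.71 to 0.31 by DUSP2 but to 0.66 by GADD45B. For DUSP2 with GADD45G, r went from 0.61 to 0.22 by DUSP2 but to 0.59 by GADD45G. Within the 6 TatNR2B9c animals alone r ran from 0.58 to 0.99 over the 15 pairs. The 21 pairs that hold IER2, IER3 or IER5 gave r from -0.56 to 0.42.

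The genes nearest to the DUSP and GADD45 members are given as a description. By the highest Pearson's r of right minus left over the 12 animals, among 15807 other genes with a value in every animal, DUSP1 came closest to GADD45G (0.962), BZW2 (0.942) and CHMP1B (0.937). GADD45G came closest to DUSP1 (0.962), BZW2 (0.960) and GADD45B (0.921). GADD45B was closest to BTG2 (0.954), an antiproliferative early gene, to FOS (0.940), the AP-1 subunit used as a marker of neuronal activity, and to UCK2 (0.938). DUSP5 was closest to ADAMTS1 (0.979), a secreted protease, to the early nuclear receptor NR4A1 (0.941) and to DKK1 (0.931). DUSP6 was closest to NR4A1 (0.956), RGS2 (0.954) and TAGAP (0.939), and DUSP2 to TNIP3 (0.962), FLJ23749 (0.945) and PCLO (0.937).

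IER2 and IER5 had other neighbours. IER2 came closest to KIAA1582 (0.989), NOMO3 (0.984) and C9orf121 (0.984). IER5 was closest to CRKL (0.931), an unnamed transcript cluster (0.927) and MBNL2 (0.923). Names are those of the array files.

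FOS has its lowest and highest values in placebo animals 2 and 3 at 6 h. Its right-minus-left values were -1.74, -0.27 and 0.07 in placebo animals at 1 h, -1.29, -5.42 and 3.03 at 6 h, 2.62, 1.22 and 2.30 under TatNR2B9c at 1 h, and -1.57, 2.61 and -2.16 at 6 h. All 3 TatNR2B9c animals at 1 h were above 0, with a mean difference of 2.05 (adjusted p = 0.927 by limma). NR4A1 read 1.03, 0.33 and 0.94 in those 3 animals, and in placebo animals at 6 h it read -0.73, -3.17 and 2.37.

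**Figure D3:**
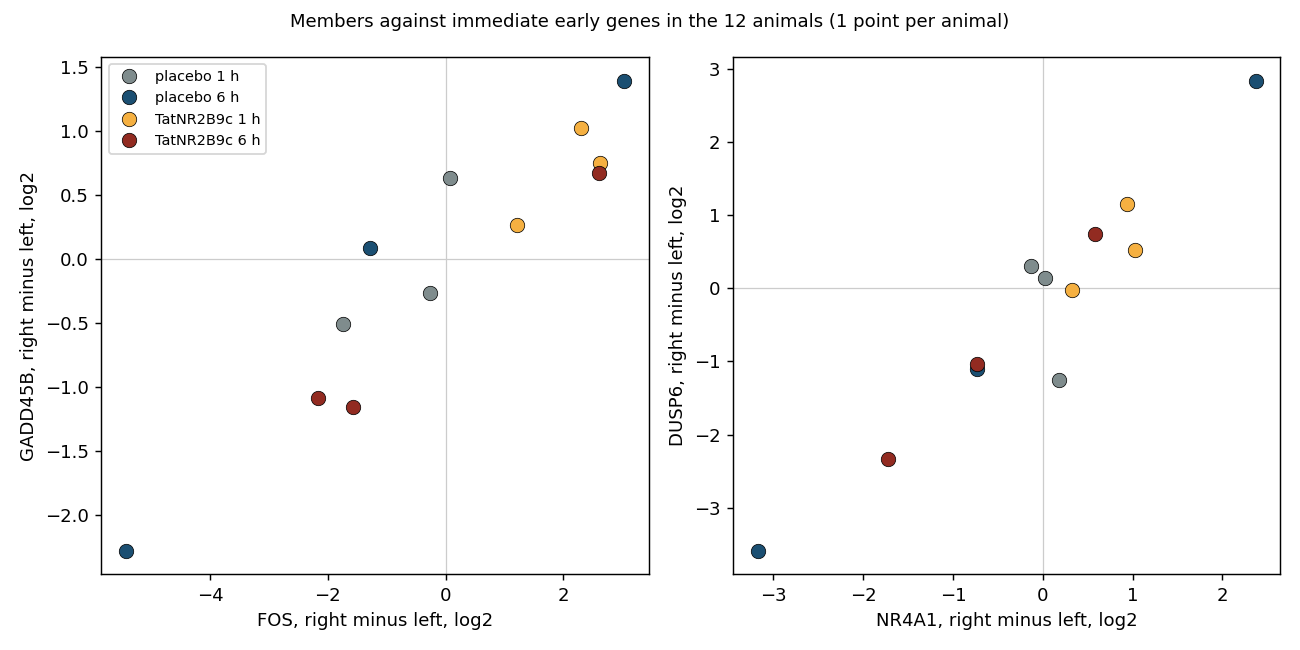
Right minus left (log2) of GADD45B against FOS (left panel) and of DUSP6 against NR4A1 (right panel), 1 point per animal, coloured by treatment and time. The 2 placebo 6 h animals at the corners, -2.28 and 1.39 for GADD45B, span the range of the plot, and the 3 TatNR2B9c 1 h animals lie above 0 for FOS.

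The side difference itself was then compared between times and treatments. Right minus left at 6 h minus that at 1 h was below 0 for 7 of 9 members, with a median of -0.56 against 0.01 over all genes. Of all genes 51.5% were above 0. The members share arrays and 6 of them varied together, so such counts of signs are not counts of independent genes. GADD45G lay at -1.23 (SE 0.89), DUSP1 at -0.95 (SE 0.82) and DUSP6 at -0.89 (SE 0.89), and the smallest adjusted p of any member by limma was 1, with 0% of genes called (245 at an unadjusted p under 0.05). The treatment-by-side difference at 1 h (right minus left under TatNR2B9c minus that under placebo) was above 0 for 7 of 9 members, against 42.7% of all genes. Its median was 0.52 against -0.05 over all genes. It was 1.14 (SE 1.16) for DUSP1 and -0.78 (SE 0.65) for IER2, none passed, and 0% of genes were called (276 at an unadjusted p under 0.05). Without placebo left 1 h animal 1, 1 of the narrow-spread arrays, the median was 0.21. At 6 h the median was -0.11 with values from -0.32 to 0.39, none called, and 0% of genes called (673 at an unadjusted p under 0.05).

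Between treatments no member passed either, and these contrasts cannot be told apart from the scanning campaign. In right cortex at 1 h, 0 of 9 members were called against 1.55% of genes, and the groups were apart for 2 of 9 (DUSP2 higher, IER2 lower under TatNR2B9c) against 26.2% of genes. IER2 differed by -1.34 there (SE 0.46, adjusted p = 0.183 by limma), with its reference well above background on 1 of 6 placebo 1 h arrays. It was called at -2.40 (adjusted p = 0.0197) from Agilent's processed signals and from the series matrix, and at -1.34 (adjusted p = 0.0403) from only the groups compared. From the sample channel alone it was at 0.88 (adjusted p = 0.0729). In right cortex at 6 h, 0 of 9 were called against 4.28% of genes, and 0 of 9 groups were apart against 30.3%. IER5 came nearest, at -0.61 (SE 0.20, adjusted p = 0.0926), and without TatNR2B9c right 6 h animal 1 it was called, at -0.85 (adjusted p = 0.0166). Without TatNR2B9c right 6 h animal 3 it was at -0.40 (adjusted p = 0.446). DUSP6 was at 1.54 (SE 0.89, adjusted p = 0.334). In left cortex at 1 h, 0 of 9 were called against 0.896% of genes, and 3 of 9 had groups apart (DUSP5, IER2 and IER5, all lower) against 17.3%. Over both sides at placebo 1 h, the reference was well above background on 3 of 6 arrays for DUSP5, 1 for IER2 and 0 for IER5. The placebo ratios in these 3 differences thus rest on a reference that was weak or not measured. In left cortex at 6 h, 0 of 9 were called against 24.4% of genes, and 0 of 9 had groups apart against 33.6%. DUSP6 was at 1.80 there (SE 0.89, adjusted p = 0.148). Without placebo left 6 h animal 2 it was called at 2.83 (adjusted p = 0.0276), and without TatNR2B9c left 6 h animal 2 at 2.61 (adjusted p = 0.0359). Without animal 3 of either group it was smaller, at 0.77 (adjusted p = 0.569) without the TatNR2B9c array and 0.98 (adjusted p = 0.502) without the placebo array.

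Between 6 h and 1 h in placebo cortex, the ratios of IER5 on both sides and of DUSP2 on the left were higher at 6 h, the only calls among the members. At 1 h the IER5 reference was well above background on 0 of 6 arrays, that of IER2 on 1 of 6 and that of DUSP2 on 4 of 6. The 1 h ratio of IER5 therefore has no measured reference, and no fold is given for it. In right cortex the IER5 ratio differed by 0.65 (SE 0.20, adjusted p = 0.0161 by limma). That is 1 of 9 members called against 40.9% of genes, and 2 of 9 had groups apart (DUSP2 and IER5, both higher) against 59.8%. DUSP2 was higher by 0.97 (SE 0.50, adjusted p = 0.125) and DUSP1 was at -1.68 (SE 0.82, adjusted p = 0.109). In left cortex DUSP2 was higher by 1.30 (SE 0.50, 2.45-fold, adjusted p = 0.0346) and the IER5 ratio, with the same limit, by 0.50 (SE 0.20, adjusted p = 0.0438). That is 2 of 9 called against 54.1% of genes, and 3 of 9 had groups apart (DUSP2 and IER5 higher, IER2 lower) against 63.8%. Time and scanning campaign cannot be told apart here. From the sample channel alone DUSP2 in left cortex was at -0.07, and from Agilent's processed signals IER5 was at -1.06 in right and -0.35 in left cortex. Without the 3 weak-reference arrays none was called, with DUSP2 at 0.94 and IER5 at 0.62 in right and 0.45 in left cortex. In right cortex the IER5 call was lost without placebo right 1 h animal 3 (0.62, adjusted p = 0.0577) or placebo right 6 h animal 2 (0.50, adjusted p = 0.0873). Without placebo right 6 h animal 3, DUSP1 and DUSP5 were called beside IER5. In left cortex the DUSP2 call was lost without placebo left 1 h animal 1 (1.07, adjusted p = 0.127), placebo left 1 h animal 3 (1.35, adjusted p = 0.0575) or placebo left 6 h animal 2 (0.70, adjusted p = 0.23). The IER5 call there was lost without any of the 3 placebo left 1 h arrays (0.46 to 0.53), placebo left 6 h animal 2 (0.31) or placebo left 6 h animal 3 (0.55). It held without placebo left 6 h animal 1 alone (0.65, adjusted p = 0.0222).

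Under TatNR2B9c, where both times lie in 1 campaign, no member passed between 6 h and 1 h. In right cortex 0 of 9 were called against 0% of genes (3072 at an unadjusted p under 0.05), and 1 of 9 (DUSP1, lower at 6 h) had groups apart against 27.9% of genes. DUSP1 was at -1.24 (SE 0.82, adjusted p = 0.419). In left cortex 0 of 9 were called against 0% of genes (2549 at an unadjusted p under 0.05), and 1 of 9 (IER5, higher) had groups apart against 17.6%. The members' median was 0.51 there against -0.01 over all genes, and 8 of 9 were above 0 against 48.3% of all genes. GADD45G was at 1.35 (SE 0.89, adjusted p = 0.449). TatNR2B9c left 6 h animal 3 held the highest value of its group for 8 of 9 members.

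**Figure D4:**
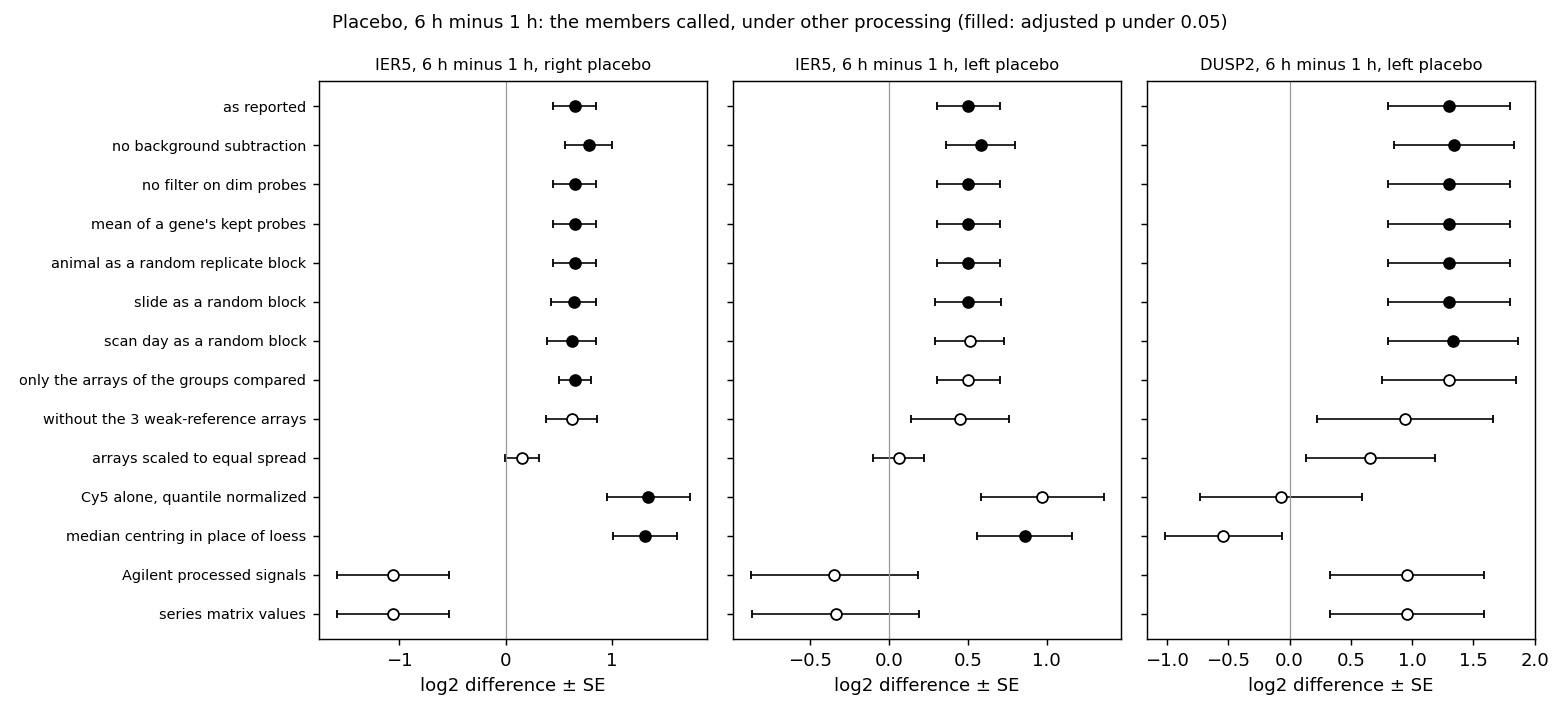
Log2 difference between 6 h and 1 h in placebo cortex ± SE (x axis) for the 3 member calls, as reported and under other processing (y axis); filled points have an adjusted p under 0.05. IER5 turns below 0 with Agilent's processed signals and the series matrix values, and DUSP2 with the sample channel alone and with median centring.

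Other genes of the pathway were read from lists drawn up with earlier results of these data known. None of the 6 lists had a gene called in any right-minus-left or interaction comparison, nor between times under TatNR2B9c. In all of these comparisons 0% of all genes were called. Between placebo times 40.9% of all genes were called in right and 54.1% in left cortex, and the counts of each list are to be read against these shares. Of 16 other DUSP genes that passed, 5 rose and 4 fell between 1 h and 6 h in placebo right cortex, and 7 and 5 in left cortex (56.2% and 75% called). The stress-kinase phosphatase DUSP8 rose by 2.45 (SE 0.29, adjusted p = 1.35e-05) on the right and 2.32 (adjusted p = 1.02e-05) on the left. DUSP14 rose by 1.12 and 1.19 and DUSP18 by 0.80 and 0.95. Of 4 genes on the list of other GADD45 and IER genes, GADD45A, the p53-induced paralog, fell by 1.59 (adjusted p = 0.049) on the right and by 1.90 (adjusted p = 0.0155) on the left. IER3IP1, an IER3-interacting protein on that list that is not itself an IER gene, fell by 0.65 and 0.74. Of 34 MAP kinase cascade genes, 9 rose and 3 fell on the right and 16 rose and 5 fell on the left (35.3% and 61.8% called, near the shares of all genes). The p38 activator MAP2K6 rose by 1.62 and 1.93, and the p38 kinase MAPK11 by 2.35 and 2.73. These placebo time calls share the campaign limit.

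Of 15 ERK feedback genes and targets, 2 rose and 2 fell in placebo right cortex and 3 rose and 4 fell in left (26.7% and 46.7% called). SPRY4, a feedback inhibitor of receptor signalling, rose by 1.77 and 2.00 and ETV5 by 1.24 and 1.51. Of 34 other immediate early genes, 3 rose and 4 fell on the right and 10 rose and 4 fell on the left (20.6% and 41.2% called). ARC, a synaptic early gene, was at 2.45 (adjusted p = 7.35e-05) on the left. KLF6 fell by 1.54 on the right, and CTGF by 1.19 and 1.04. Of 12 p53 targets, 1 rose and 1 fell on the right (BAX at 2.36, PMAIP1 at -0.90), and 1 rose and 4 fell on the left (16.7% and 41.7% called). In TatNR2B9c against placebo these lists held 0 to 5 calls each, the 5 being of 34 MAP kinase cascade genes (14.7%) in left cortex at 6 h, where 24.4% of all genes were called. Among the calls were SOS1, at -1.13 in right and -1.40 in left cortex at 6 h, and BAX, higher by 1.59 in right and 2.08 in left cortex at 1 h.

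The other immediate early genes also stood high on the 3 arrays where the 6 DUSP and GADD45 genes were highest. Their mean log2 ratio over 34 genes was 0.65 on placebo left 6 h animal 2 against -0.24 and -0.45 on the other left arrays. It was 0.37 on placebo right 6 h animal 3 against -0.73 and -0.63, and 0.95 on TatNR2B9c left 6 h animal 3 against 0.08 and -0.37. Over the 16 other DUSP genes the mean was 0.10, 0.04 and 0.05 on the same 3 arrays, and -0.08 to 0.09 on the other arrays of their groups. The 15 ERK feedback genes and targets were also highest there, at 0.12 against -0.11 and -0.17, at 0.22 against -0.17 and -0.07, and at 0.43 against 0.13 and 0.13. On TatNR2B9c left 6 h animal 3 the p53 targets (-0.26 against -0.93 and -0.90) and the other GADD45 and IER genes (-0.03 against -0.78 and -0.80) were high as well, so other lists share the pattern there.

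Cell type markers are given because a biopsy can hold different cells, and in bulk tissue fewer cells of a type and less RNA per cell cannot be told apart. None of the 7 marker lists had a gene called between right and left, where 0% of all genes were called, so this says nothing particular to cell content. Median right minus left was 1.41 for neuron and 1.35 for astrocyte markers in placebo 1 h animal 1. It was -1.35 and -1.17 in placebo 1 h animal 3, and each of these 2 animals has 1 array of narrow spread. For oligodendrocyte markers it ran from -0.72 (placebo 6 h animal 2) to 2.16 (TatNR2B9c 6 h animal 3). Mean log2 ratios of the 7 of 8 neuron markers that passed were 0.35 to 2.43 at placebo 1 h and 3.65 to 4.19 at placebo 6 h, and all 7 rose between these times on both sides. The lowest values, 0.35 and 0.57, are on the 2 arrays of narrow spread and weak reference, placebo left 1 h array 1 and placebo right 1 h array 3. Between the same times, beside the IER5 and DUSP2 calls, 3 of 6 oligodendrocyte and 2 of 6 astrocyte markers rose on the right and 5 and 3 on the left. Of 6 meninges and choroid plexus markers 4 fell on either side. Of 5 neutrophil and red cell markers 2 fell on either side, the red cell genes HBB and ALAS2, and no neutrophil gene was called. Of 7 endothelial markers 1 fell on the right and 2 on the left, and of 7 microglia and macrophage markers 3 fell on the right and 1 rose on the left. Of all genes 40.9% were called between these times in right and 54.1% in left cortex. Time and scanning campaign cannot be told apart in these marker calls either. Between treatments at 6 h the same 2 red cell genes were called, among other markers, against 4.28% of genes in right and 24.4% in left cortex. HBB was higher under TatNR2B9c by 5.89 in right and 5.03 in left cortex, and ALAS2 by 1.88 and 1.68. Treatment and campaign cannot be told apart there. Neuron markers stood at 3.73, 4.19 and 2.65 on the 3 arrays with high members, the other arrays of their groups at 2.88 to 3.82. Neutrophil and red cell markers (5 of 8 passed) stood at 2.00 on TatNR2B9c left 6 h animal 3, against 0.21 and -0.65 on the other 2 of its group, and at 0.92 on the right array of the same animal. On that left array the meninges markers stood at -0.57 against -1.60 and -1.53, and the oligodendrocyte markers at 0.35 against 1.22 and 2.23. Astrocyte markers (6 of 7) ran from -0.02 to 1.79 over the 24 arrays, oligodendrocyte markers (6 of 7) from 0.04 to 2.91 and microglia and macrophage markers (7 of 8) from -1.24 to -0.02. Endothelial markers (7 of 7) ran from -0.78 to 0.04, and markers of meninges and choroid plexus (6 of 7) from -2.96 to -0.24. The part of cell content in the members' values was not tested.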

How the data were processed

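RNA of 24 cortex biopsies was measured on 2-colour Agilent arrays with no dye swap, so dye bias was not tested. Images were extracted with Feature Extraction 9.5.3.1, 10.5.1.1 and 10.7.3.1, per the file headers, and only the last is in the submitters' processing notes. Intensities in the deposited files are each spot's mean brightness and median local background on a linear scale, per the file headers. The deposited log10 ratios set the processed Cy5 signal against the processed Cy3 signal, per the file headers, and the series matrix differs from them by at most 0.005, with column medians of 0 to 0.175. The authors' deposited flags mark spots above background, saturated or not uniform, per the file headers.

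Of 41851 spots, 1417 were controls. Background was corrected by normexp (offset 50), ratios were loess-normalised within arrays, non-uniform spots were dropped, and spots of 1 probe were averaged. A probe passed if at least 50% of its spots were well above background in Cy5 on all arrays of a group (17226 of 20217), and a gene was read by its brightest passing probe. limma 3.58.1 (R 4.3.3) fitted 1 mean per group to 24 arrays, two-sided, and a gene was called at a Benjamini-Hochberg adjusted p under 0.05. The fit was tested on simulated data. The number of arrays limits the precision.

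The rule, written with earlier results of these data known like the members and lists, was to name every member, up to 3 genes per list and comparison with the smallest adjusted p under 0.05, and the 3 genes nearest to each member. Of those the text gives a part, the genes nearest to IER3 are not reported here, and FOS and NR4A1 were followed further after their values were seen. The alternatives were other background, normalisation, filter, probe and channel choices, blocks, and left-out arrays. Right and left arrays of 1 number are taken as 1 animal from the titles.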

Additional observations from a re-analysis of the deposited data

Results flagged for a closer look

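IER2 is the 1 member result singled out for a closer look, because its right-minus-left differences went different ways under the 2 treatments at 1 h. They were 0.01, 0.10 and 0.06 in the 3 placebo animals and -0.85, -0.47 and -0.86 in the 3 TatNR2B9c animals, a mean of -0.73. The difference between treatments was -0.78 (SE 0.65, adjusted p = 1 by limma) and did not pass. The IER2 reference signal was well above background on 1 of 6 placebo 1 h arrays and on 6 of 6 TatNR2B9c 1 h arrays, and its part in the result was not tested.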

How the results depend on the processing

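In all right-minus-left and interaction comparisons, and between times under TatNR2B9c, 0 members were called under every alternative run. Between times in placebo left cortex (2 calls as reported), 0 were called from Agilent's processed signals, the series matrix, equal spread or without the 3 weak-reference arrays, 1 from Cy5 alone (IER2), from only the groups compared (IER2) and with scan day as a block (DUSP2), and 7 with median centring. In placebo right cortex (1 call) the same settings gave 0 from processed signals, the series matrix, equal spread and without weak-reference arrays, 2 from Cy5 alone and 7 with median centring. Leaving out 1 replicate gave 0 to 2 calls on the left and 0 to 3 on the right. TatNR2B9c against placebo (0 calls) gave, in left cortex at 1 h, 2 from processed signals and the series matrix, 1 from Cy5 alone and 7 with median centring. In right cortex at 1 h it gave 1 from processed signals, the series matrix and only the groups compared, and 2 with median centring. In left cortex at 6 h Cy5 alone gave 1, and leaving out 1 replicate gave 0 to 1 calls there and in right cortex at 6 h.

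Of 144 differences of single members, 102 had values on both sides of 0 over their alternatives, most of them never called. Those called as reported or under the alternative that turned them follow. With median centring, placebo 6 h minus 1 h was -0.54 for DUSP2, -2.95 for GADD45B and -2.44 for GADD45G in left cortex, and -2.55 for GADD45B and -1.93 for IER3 in right cortex. TatNR2B9c minus placebo at 1 h was then -1.57 for DUSP2 and -1.89 for DUSP6 in left cortex and -2.19 for GADD45B in right cortex. From Cy5 alone, placebo 6 h minus 1 h was -0.07 for DUSP2 in left cortex, and for IER2 1.78 in left and 1.84 in right cortex, with IER2 at 1.14 for TatNR2B9c minus placebo in left cortex at 1 h. IER5 between placebo times was -0.35 (left) and -1.06 (right) from processed signals, and -0.34 and -1.06 from the series matrix. The cause was not tested.

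Other scalings also moved all genes. Between placebo times 52.6% of calls were higher at 6 h in right cortex and 56.9% in left, against 38.8% and 38.4% from processed signals, which shifted the median of all genes to -0.36 and -0.34, and 43.6% and 45% with median centring (-0.34 and -0.31).

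With the animal as a replicate block, random or fixed, the count of members called changed in no comparison, at 0 for right minus left, and the block correlation was 0.05. Deviations of same-numbered right and left arrays correlated at -0.71 to 0.69, over 0.1 in only 6 of 12 pairs. The data thus do not bear out the pairing, on which every right-minus-left value of a single animal depends.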
